A study of Mus musculus with 16 samples.

Results

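Complement components and regulators were followed in primary brain endothelial cells of *APOE3* and *APOE4* mice as 9 genes of the RNA sequencing count table, out of 39057 genes listed there. They are C3, C4b, Cfb, C1ra, C1s1, Cd55, Cd59a, Cr1l and Serping1, found by symbol with GENCODE vM21. The cultures came from cerebral cortices of mice 21 to 28 days old whose endogenous mouse promoter drives a human APOE gene, either the *APOE3* or the *APOE4* isoform (targeted replacement mice). There were 8 cultures per genotype, 4 from males and 4 from females, each from a different animal. All were selected in 8 µg/ml puromycin, grown to confluence and left untreated, so both groups carry a human APOE gene and no group without one was compared. A total of 44 further complement genes served as the rest of the pathway.

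Complement is a protein cascade of innate immunity. In the first complex of the classical pathway the protease C1r activates C1s, which cleaves C4. Factor B, encoded by Cfb, supplies the protease of the alternative pathway, and all routes meet at C3. Host cells limit the cascade with proteins on their surface (Cd55, which disperses the convertases, Cd59a, which blocks the terminal pore, and Cr1l, also known as Crry, the rodent regulator of C3 and C4 deposition) and with secreted inhibitors such as Serping1, the inhibitor of C1r and C1s. Endothelial cells are exposed to plasma complement and are known for surface regulators of this kind.

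Libraries held 12717847 to 18624417 counted reads, and *APOE4* replicate 35 was the shallowest. All 12 brain endothelial markers were above the low-count filter, with a summed level of 15060 to 16532 CPM (counts per 1000000 counted reads). Mfsd2a was far the lowest of the 12, with 36 to 82 counts per library and means of 3.46 CPM in *APOE3* and 3.36 CPM in *APOE4*. The 9 microglia and macrophage markers summed to 5.32 to 7.94 CPM. Cd68 made up most of that sum, with 74 to 118 counts per library. Tmem119 reached at most 7 counts in a library and Csf1r at most 5. Of the 9 markers 4 never exceeded 3 counts, and P2ry12, Trem2 and Tyrobp were at 0 in every library. These are bulk cultures, in which fewer cells of a type and less RNA per cell cannot be told apart.

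For several of these genes the sequence itself limits what a read of 50 bases can show, so stretches of coding sequence that are identical in a neighbouring paralog are given first, from GENCODE vM21 transcripts on GRCm38 and in lower case. Each is the first 50 bases of coding sequence, within 1 exon, that the paralog's transcripts also hold.
C4b, exon 2, shared with C4a, chr17:34743563-34743612, minus strand: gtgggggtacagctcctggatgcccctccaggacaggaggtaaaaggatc
C1ra, exon 2, shared with C1rb, chr6:124513652-124513701, plus strand: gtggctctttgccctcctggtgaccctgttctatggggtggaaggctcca
C1s1, exon 3, shared with C1s2, chr6:124540944-124540993, minus strand: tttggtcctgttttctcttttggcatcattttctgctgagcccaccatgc

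A 50-base read from any of these stretches has no single place of origin. Of all 50-base windows in their transcripts, 50.8% of C1ra, 35.1% of C1s1 and 34.6% of C4b occurred in another gene as well. Cfb was limited in another way. Of its exon bases, 79.5% also lie in exons of Gm20547, a gene model on the same strand, and Gm20547 had a total count of 0 in these libraries. How reads shared by several genes were counted is not given in the sources used here, and the levels of these 4 genes are therefore uncertain. C3 and Serping1 shared no 50-base window with another gene, and the shared part was 9.12% for Cd55, 4.34% for Cr1l and 3.87% for Cd59a.

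The membrane regulators Cr1l and Cd59a were the most abundant of the 9 genes, and C3 and the third membrane regulator, Cd55, came next. Per kilobase of exon, averaged over the 16 libraries, Cr1l stood at 12.6 ± 0.523 CPM (SD), Cd59a at 10.9 ± 1.14 and C3 at 3.04 ± 1.00. Cd55 followed at 2.34 ± 0.336 and C1ra at 1.24 ± 0.286. Serping1 (0.212 ± 0.129), C1s1 (0.149 ± 0.0621), C4b (0.0940 ± 0.0401) and Cfb (0.0729 ± 0.0768) formed the lower end of the order. Cr1l was above Cd59a in 15 of 16 libraries, and Cd59a was above C3 in 16 of 16. C3 was above Cd55 in 11 of 16 libraries, an order that differed by genotype. Per kilobase, C3 and Cd55 stood at 2.30 ± 0.779 and 2.32 ± 0.375 CPM in *APOE3*. In *APOE4* they stood at 3.78 ± 0.559 and 2.36 ± 0.317 CPM. The order of Serping1 over C1s1 (11 of 16) and of C4b over Cfb (10 of 16) did not exceed the spread between libraries.

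**Figure D1:**
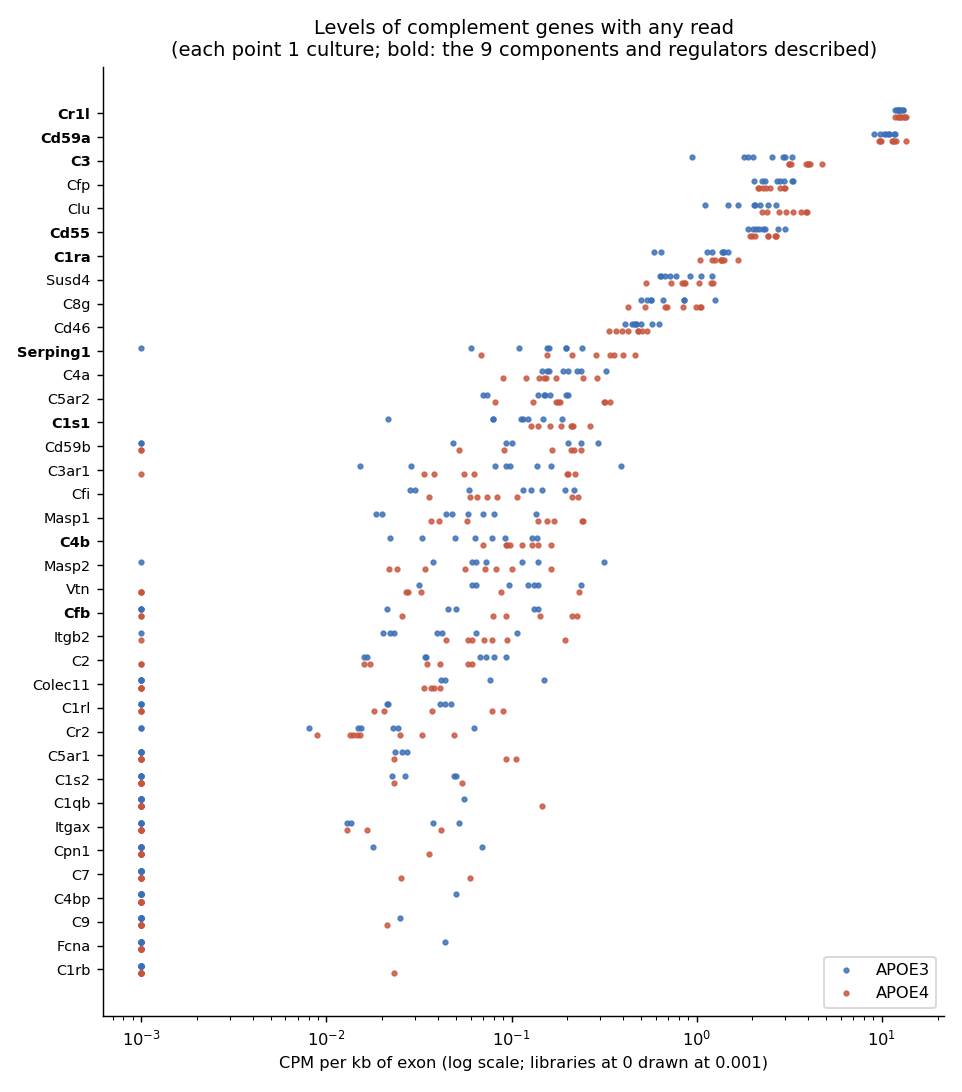
Levels of the listed complement genes with any read, as CPM per kilobase of exon on a log axis, with 1 point per culture coloured by genotype, libraries at 0 drawn at 0.001, and the 9 components and regulators in bold. Cr1l and Cd59a lie highest of the genes drawn, and C4b, C1s1, Serping1 and Cfb lie below 0.5 in all libraries.

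Of the 9 genes, 5 passed edgeR's filter on low counts: C3, C1ra, Cd55, Cd59a and Cr1l. C4b (2 to 17 counts per library), Cfb (0 to 11), C1s1 (1 to 14) and Serping1 (0 to 17) did not. Their counts were above a floor of 3 in 14, 7, 15 and 13 of the 16 libraries. Of the 44 further complement genes 7 passed the filter, 22 never exceeded 3 counts in any library, and 16 of those 22 had no read at all.

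The question of the design was whether *APOE* genotype changes these transcripts. C3 was higher in *APOE4* cultures, and it was the only one of the 5 tested genes past an adjusted p of 0.05 (edgeR's quasi-likelihood test). Among all 12481 genes tested 12.8% were past that threshold in either direction and 6.71% were higher in *APOE4*. The median log2 fold change of the 5 genes was 0.07, beside 0.00 over all genes tested.

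**Figure D2:**
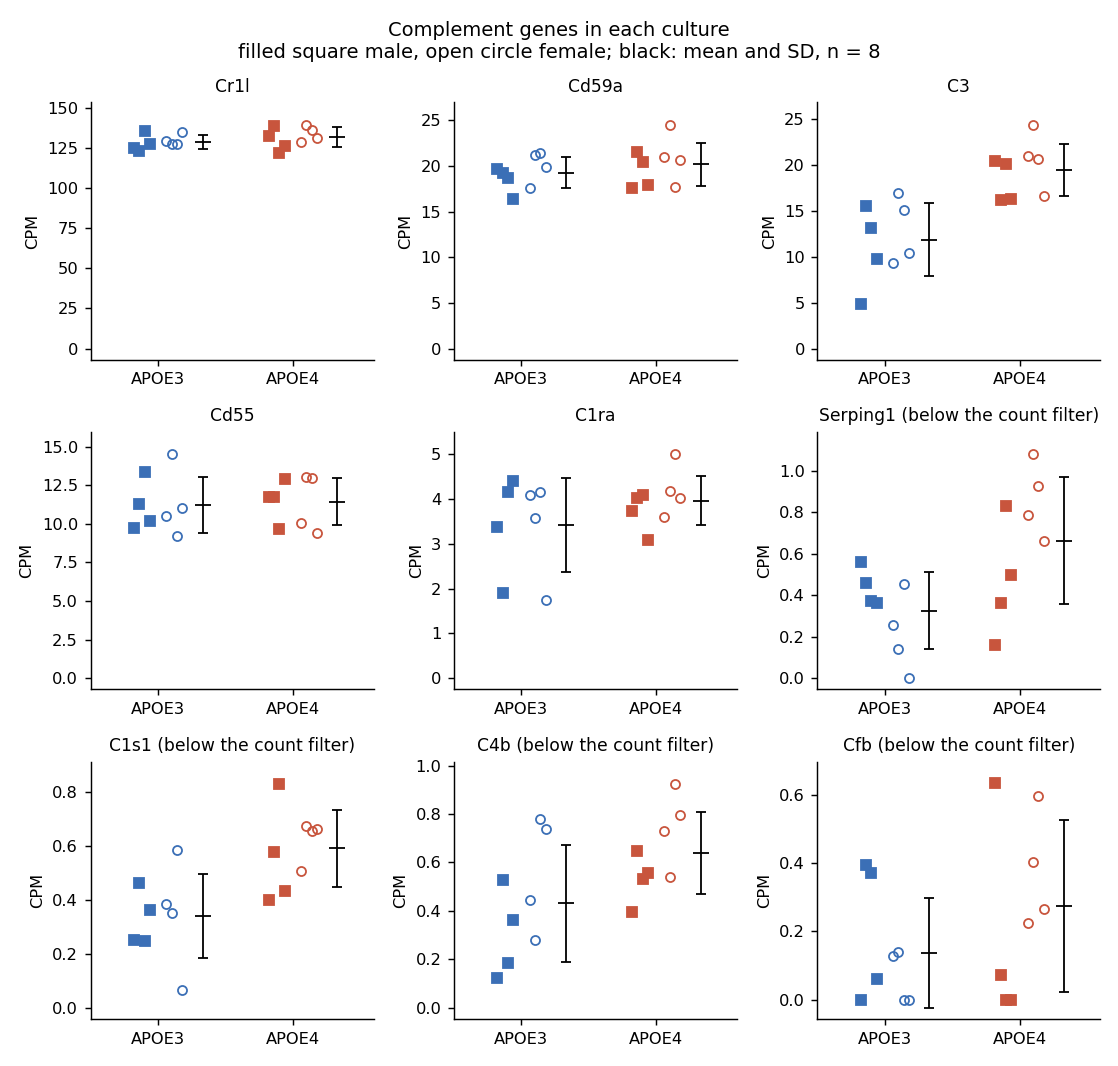
CPM of the 9 genes in each culture by genotype, with filled squares for males and open circles for females, and the mean and SD over 8 cultures in black. C3 is shifted upward in *APOE4*, whereas the groups of Cr1l, Cd59a, Cd55 and C1ra lie over each other.

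C3 (ENSMUSG00000024164.15, GRCm38 chromosome 17, 57203970 to 57228136, minus strand) encodes the protein whose cleavage is the central step of the cascade. It was measured with 78 to 240 counts per *APOE3* library and 225 to 378 per *APOE4* library. In *APOE3* cultures its lowest, median and highest levels were 4.87, 11.7 and 16.9 CPM, and in *APOE4* cultures 16.2, 20.2 and 24.3 CPM. The groups overlapped only between 16.2 and 16.9 CPM: 8 of 8 *APOE4* cultures were above the *APOE3* median and 5 of 8 above every *APOE3* culture. Means were 11.8 ± 4.01 CPM and 19.4 ± 2.87 CPM (SD, n = 8 each), a 1.64-fold difference (0.72 on the log2 scale, SE 0.170, 95% interval 0.36 to 1.07, adjusted p = 0.0123).

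The C3 difference was of like size in both sexes. It was 0.76 on the log2 scale in males (SE 0.245, adjusted p = 0.217, n = 4 each) and 0.68 in females (SE 0.239, adjusted p = 0.136). With 4 cultures per group no gene of the 12481 passed the threshold within either sex in edgeR, although 1775 genes in males and 2428 in females had an unadjusted p under 0.05. The difference of the effect, females minus males, was -0.08 for C3 (95% interval -0.80 to 0.64, adjusted p = 1.00), an interval that includes differences as large as the effect itself.

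*APOE3* replicate 25, a male culture, had the lowest C3 level of all, 4.87 CPM, and without it the log2 fold change was 0.60 (adjusted p = 0.0113). Leaving out each library in turn gave 0.60 to 0.81, past the threshold in 16 of 16 fits. Transcripts of the cell cycle moved with genotype in the same libraries. Of 30 cell cycle genes 28 passed the threshold as higher in *APOE4*, beside 6.71% of all genes, and the other 2, Mcm2 and Mcm5, had positive log2 fold changes of 0.21 and 0.32. Their mean log2 CPM was 5.68 ± 0.350 in *APOE3* and 6.27 ± 0.268 in *APOE4* (exact permutation p = 0.00124, adjusted over 8 marker lists 0.00995). The list was chosen with earlier results of these data known, so these p-values are descriptive. The summed level of the 30 genes was 1369 to 2768 CPM in *APOE3* cultures and 2301 to 3935 CPM in *APOE4* cultures. With that score in the edgeR fit the C3 difference was 0.38 (SE 0.207, unadjusted p = 0.0811, adjusted p = 0.743). In the same fit 0 of the 12481 genes passed the threshold and 880 had an unadjusted p under 0.05. Within a genotype, C3 and the score had r = 0.43 (rho = 0.45, exact permutation p = 0.285) in *APOE3* and r = 0.48 (rho = 0.45, exact p = 0.238) in *APOE4*, each over 8 cultures. Without the 2 cultures farthest from the median of C3, r was 0.68 and 0.35. What part the cell cycle transcripts have in the C3 difference was not tested.

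**Figure D3:**
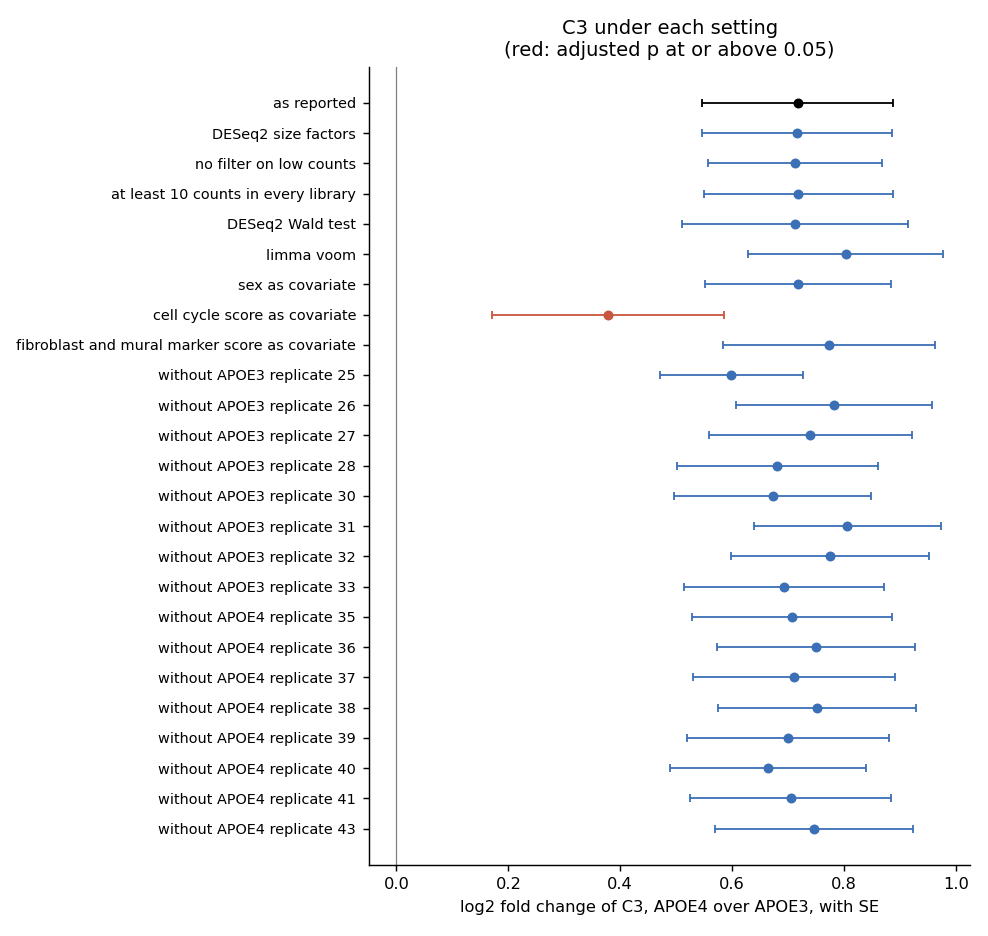
Log2 fold change of C3 (*APOE4* over *APOE3*) with its SE as reported, in black, and under each other setting, in blue where the adjusted p was under 0.05 and in red where it was not. All values lie above 0, from 0.38 with cell cycle score as covariate to 0.81 without *APOE3* replicate 31.

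The 8 fibroblast markers, 2 of which never exceeded 3 counts, had a summed level of 24.9 to 75.4 CPM in *APOE3* and 28.2 to 106.4 CPM in *APOE4*, and their mean log2 CPM differed by 0.35, *APOE4* minus *APOE3* (exact permutation p = 0.107). Of the 5 fibroblast markers tested 1 passed the threshold in edgeR, beside 12.8% of all genes tested. It was Fbln1, which encodes the matrix protein fibulin 1, at 11.5 CPM in *APOE3* and 21.5 CPM in *APOE4* (log2 fold change 0.90, adjusted p = 0.00542 in edgeR). Among the 5, 4 had a positive log2 fold change and 1 a negative one. Pericyte and smooth muscle markers summed to 187.3 to 353.5 CPM and 222.3 to 339.4 CPM. With the combined score of both lists in the edgeR fit, the C3 difference was 0.77 (SE 0.189, adjusted p = 0.0280), against 0.72 without it. That fit called 763 of all 12481 genes, against 1597 without the score. What part fibroblast and mural transcripts have in the C3 difference was not tested. Brain endothelial markers differed by -0.03 (exact permutation p = 0.161) and microglia and macrophage markers by -0.01 (p = 0.946, exact permutation test). Of the 12 brain endothelial markers 1, Emcn, passed the threshold in edgeR (log2 fold change 0.14, adjusted p = 0.0106), beside 12.8% of all genes tested.

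The promoter of C3 was searched for 5 short motifs, on both strands, from 250 bases before to 50 after the start site in RefSeq (GRCm38.p6). Motifs were the kappaB motif, the interferon-stimulated response element core GAAANNGAA, the GAS element TTCNNNGAA, the C/EBP element TTGCNNAA and the TATA box TATAAA. C3 is printed because it is the gene of the 9 that differed between genotypes. The 250 bases before its start site follow, with the single match among them in capitals.
C3, chr17:57228137-57228386, minus strand: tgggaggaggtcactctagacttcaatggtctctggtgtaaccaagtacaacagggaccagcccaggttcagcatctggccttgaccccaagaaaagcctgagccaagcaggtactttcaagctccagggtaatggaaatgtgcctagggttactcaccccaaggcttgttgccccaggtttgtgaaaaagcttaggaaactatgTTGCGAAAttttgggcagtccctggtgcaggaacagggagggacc

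The capitals mark a match to the C/EBP element that begins 45 bases before the start site. A TATA box match began 14 bases after it. Of 32851 mouse promoters of the same length in the table, 10.8% held the C/EBP element and 13.6% the TATA box. Promoters were listed for 6 of the 9 genes, and the C/EBP element was found in 3 of them (C3, C1ra and 1 of the 2 promoters listed for C1s1), the interferon core in 1 (Cd59a), the GAS element in 1 (C1ra) and the kappaB motif in 0 of 6, against 8.56%, 8.30% and 8.46% of all promoters for the last 3 motifs. The counts for these genes are per gene and the shares per promoter. A match is a run of letters and not a shown binding site.

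None of the 3 membrane regulators differed between genotypes past the threshold. Cr1l (chromosome 1, 195097382 to 195131586) had the steadiest level of the 9 genes and also the most counts, 1664 to 2499 per library. Its lowest, median and highest levels were 122.7, 127.4 and 135.2 CPM in *APOE3* and 121.6, 131.6 and 139.3 CPM in *APOE4*. The coefficient of variation was 3.38% and 4.71%, and the groups overlapped over most of their range. Counting error is a smaller share of the level at higher counts, and its part in the order of spread was not tested. Means of 128.6 ± 4.35 and 131.7 ± 6.21 CPM differed by 0.03 on the log2 scale (SE 0.0326, adjusted p = 0.532), with a 95% interval of -0.03 to 0.10.

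Cd59a (chromosome 2, 104095801 to 104115354), the inhibitor of the membrane attack complex, ranged over 16.3, 19.5 and 21.5 CPM (lowest, median, highest) in *APOE3* and 17.6, 20.6 and 24.5 CPM in *APOE4*. The groups overlapped, with 2 of 8 *APOE4* cultures above every *APOE3* culture. The log2 fold change was 0.07 (SE 0.0731, 95% interval -0.08 to 0.22, adjusted p = 0.582).

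Cd55 (chromosome 1, 130439027 to 130462744), the decay-accelerating factor, had a lowest, median and highest level of 9.24, 10.8 and 14.5 CPM in *APOE3* and 9.40, 11.7 and 13.01 CPM in *APOE4*. The *APOE4* cultures lay entirely within the *APOE3* range. Its log2 fold change of 0.03 (SE 0.1003, 95% interval -0.18 to 0.23, adjusted p = 0.899) had no stable sign, since it turned negative in 5 of the 16 fits without 1 library.

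C1ra (chromosome 6, 124512405 to 124523443), the C1r protease gene, was the least abundant of the tested genes, at 26 to 92 counts per library. Its lowest, median and highest levels were 1.74, 3.84 and 4.40 CPM in *APOE3* and 3.09, 4.03 and 5.00 CPM in *APOE4*. A pair of *APOE3* cultures, at 1.74 and 1.91 CPM, set the wider spread there, and the other 6 fell within the *APOE4* range. The log2 fold change was 0.21 (SE 0.170, 95% interval -0.14 to 0.56, adjusted p = 0.439). It was 0.11 without *APOE3* replicate 33 and 0.12 without *APOE3* replicate 26, the 2 low cultures, and 0.014 with the cell cycle score in the fit.

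**Figure D4:**
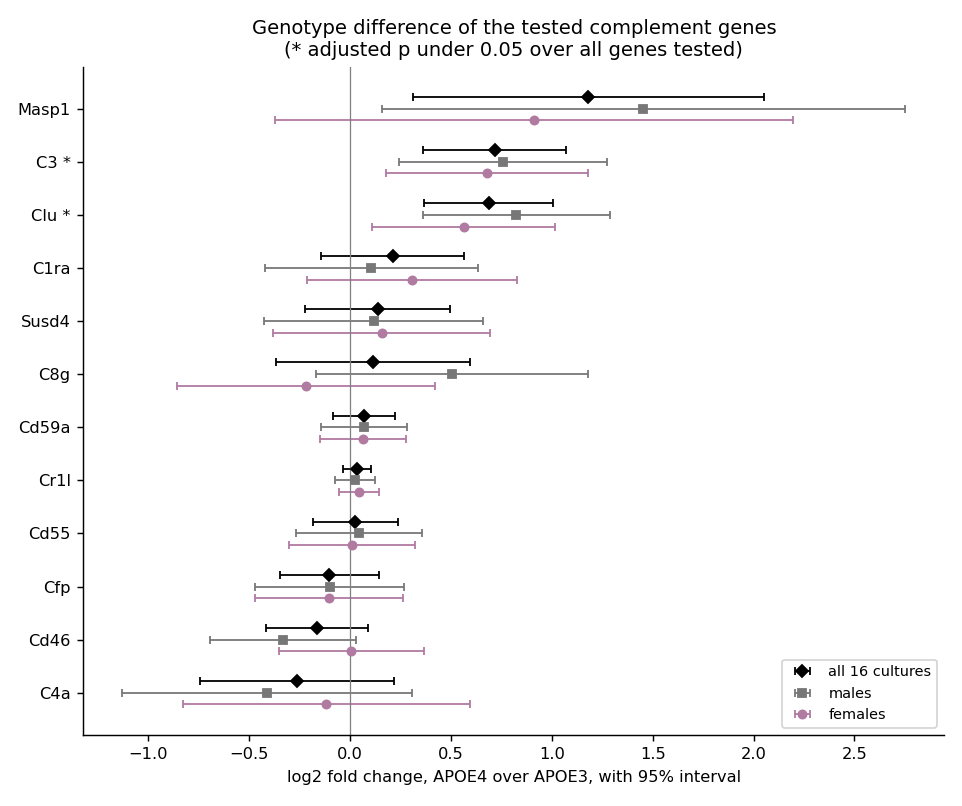
Log2 fold changes (*APOE4* over *APOE3*) with 95% intervals for the 12 complement genes tested, in all cultures and within each sex, with a star where the adjusted p over all genes was under 0.05. C3 and Clu carry a star, and Cr1l has the narrowest interval, -0.03 to 0.10.

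The 4 genes below the filter were low in both genotypes, and each had a higher mean in *APOE4*. C1s1, the C1s protease gene (chromosome 6, 124530345 to 124542359), had 42 counts in all over the *APOE3* libraries and 75 over the *APOE4* libraries. Its lowest, median and highest levels were 0.0670, 0.357 and 0.586 CPM against 0.397, 0.614 and 0.829 CPM. All 8 *APOE4* cultures were above the *APOE3* median and 4 above every *APOE3* culture (exact permutation p = 0.00435, unadjusted).

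Serping1 (chromosome 2, 84765387 to 84775444) had 41 counts over the *APOE3* libraries and 86 over the *APOE4* libraries. It ranged over 0, 0.367 and 0.562 CPM (lowest, median, highest) in *APOE3* and 0.159, 0.724 and 1.078 CPM in *APOE4*, with 5 of 8 *APOE4* cultures above every *APOE3* culture (exact permutation p = 0.0199, unadjusted). The 2 lowest *APOE4* cultures were males, and means by sex were 0.439 ± 0.0930 and 0.461 ± 0.281 CPM in males of each genotype and 0.213 ± 0.192 and 0.863 ± 0.179 CPM in females (SD, n = 4 each). In edgeR without the low-count filter, the difference of the genotype effect between the sexes was called for 0 of the 9 genes, Serping1 among them. With the filter it was called for 0 of all 12481 genes, so a missing call cannot show that Serping1 responds alike in both sexes.

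C4b (chromosome 17, 34728380 to 34743882), one of the 2 mouse C4 genes, had a lowest, median and highest level of 0.125, 0.404 and 0.781 CPM in *APOE3* and 0.397, 0.602 and 0.924 CPM in *APOE4*. The groups overlapped over most of the range (exact permutation p = 0.0648). Cfb (chromosome 17, 34856374 to 34862518) was at 0 in 3 *APOE3* and 2 *APOE4* cultures and reached at most 0.394 and 0.635 CPM (exact permutation p = 0.212).

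When all genes with any read were fitted in edgeR without the filter, none of these 4 passed the threshold, beside 1290 of all 22474 genes in that fit. Log2 fold changes were 1.01 for Serping1 (SE 0.412, adjusted p = 0.165), 0.95 for Cfb (SE 0.722, adjusted p = 0.487), 0.79 for C1s1 (SE 0.335, adjusted p = 0.183) and 0.58 for C4b (SE 0.340, adjusted p = 0.338). None of the 4 differences was therefore called at this depth after adjustment over all genes.

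Sex made no difference past the threshold in the 5 tested genes. In edgeR 0 of 5 were called between females and males, with 0 of 5 at an unadjusted p under 0.05, and 0 of 5 with DESeq2 or limma voom, beside 0.0721% of all genes. The largest of the 5 differences was that of C3, 0.22 on the log2 scale in females over males (SE 0.165, 95% interval -0.13 to 0.56). The difference of the genotype effect between the sexes was likewise called for 0 of 5, with 0 at an unadjusted p under 0.05 and 0 with the other 2 tools, beside 0.00% of all genes (345 of 12481 had an unadjusted p under 0.05).

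No pair of the 5 tested genes was correlated past the threshold across cultures of a genotype. Over 10 pairs in each genotype, r of log2 CPM among 8 cultures ran from -0.25 (C1ra and Cd59a in *APOE3*, rho = -0.31, exact permutation p = 0.560) to 0.55 (Cd55 and Cr1l in *APOE4*, rho = 0.57, exact permutation p = 0.160). Together with the 10 relations to the cell cycle score, 30 were computed, 0 had an exact p of r under 0.05, and the lowest adjusted p was 0.929. Without the 2 cultures farthest from the median of the first gene, r was -0.54 for the first of these pairs and 0.32 for the second.

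The genes most like each tested gene were found over the 16 libraries, in deviations of log2 CPM from the mean of each genotype and sex group. Those of C3 were Sephs2 (r = 0.91), Lcn2 (r = 0.88), which encodes the iron-binding lipocalin 2, and Pcyox1 (r = 0.88). Lcn2 was also higher in *APOE4*, with a log2 fold change of 0.55 and an adjusted p of 0.00614. For Cd59a they were Iigp1 (r = 0.87) and Tgtp2 (r = 0.87, at a low mean of 1.16 CPM), both interferon-inducible GTPase genes, and Dnal4 (r = 0.81). Mal (r = 0.92) led for C1ra, before Ube2n-ps1 (r = 0.89, mean 3.03 CPM) and Coro2a (r = 0.86). Tesk2 (r = 0.90, mean 2.77 CPM), Anxa4 (r = 0.88) and Sept4 (r = 0.88) led for Cd55, and Tvp23b (r = 0.83), Arfip1 (r = 0.81) and Map2k2 (r = 0.81) for Cr1l. These are the 3 highest values among 12481 genes for each, and the strongest opposite values were of like size (-0.91 for C3, -0.85 for Cd59a).

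The rest of the pathway was uneven. Of the 7 further genes tested 1 passed the threshold between genotypes, beside 12.8% of all genes tested. That gene was Clu, which encodes clusterin, a secreted protein that binds the terminal complex. Its lowest, median and highest levels were 3.81, 7.07 and 9.24 CPM in *APOE3* and 7.78, 10.96 and 13.5 CPM in *APOE4*. All 8 *APOE4* cultures were above the *APOE3* median and 6 above every *APOE3* culture. The means of 6.75 ± 1.78 and 10.9 ± 2.21 CPM lay 0.69 apart on the log2 scale (SE 0.153, adjusted p = 0.00959), and each fit without 1 library kept it past the threshold. With the cell cycle score in the fit it was 0.70 (SE 0.207, unadjusted p = 0.00263, adjusted p = 0.550).

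Masp1, a protease gene of the lectin pathway, had the largest fitted change of the 12 complement genes tested, 1.18 on the log2 scale (SE 0.417), and did not pass the threshold (adjusted p = 0.0658). In *APOE3* its lowest, median and highest levels were 0.181, 0.522 and 1.34 CPM and in *APOE4* 0.360, 1.44 and 2.38 CPM, so that the *APOE4* cultures split between 5 above every *APOE3* culture and 3 at or under 0.562 CPM. It passed with DESeq2's Wald test (adjusted p = 0.0387) and in 3 of the 16 fits without 1 library. It did not pass with limma voom (adjusted p = 0.119), with the fibroblast and mural score in the fit (0.85 on the log2 scale, adjusted p = 0.258) or with the cell cycle score, where the difference was 0.24 (adjusted p = 0.948).

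For the other 5 tested genes of the pathway the groups differed by less than their spread. Log2 fold changes were -0.27 for C4a (SE 0.231), -0.16 for Cd46 (SE 0.121), -0.10 for Cfp, the properdin gene (SE 0.117), 0.11 for C8g (SE 0.232) and 0.14 for Susd4 (SE 0.172), with adjusted p from 0.391 to 0.793. C4a held 291 counts over all libraries against 135 for C4b, although C4b is the gene that gives functional C4, and the 2 share 1983 windows of 50 bases. The paralogs C1rb, C1s2, Cd55b and Cd59b reached at most 1, 2, 0 and 6 counts in a library.

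Most recognition molecules and terminal components were near absent from the counts. Of 10 recognition genes 8 never exceeded 3 counts in a library, and of 8 further central or terminal components 6 did not. C1qa and C1qc, which encode chains of C1q and are known from microglia, had 0 counts in all libraries and C1qb at most 2. Hc, which encodes C5, and C6, C8a, C8b, Cfd and Itgam were at 0 in all libraries, though 68.7% of the exon bases of Itgam also lie in a second gene model. Receptors were low, with C3ar1 at 0 to 27 counts per library and C5ar2 at 4 to 21, and none of the 8 receptor genes passed the filter.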

How the data were processed

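Poly(A) RNA (100 ng total RNA per culture, 17 PCR cycles) of 16 cultures was sequenced, and reads of 50 bases were counted per gene by the authors. The deposited table holds whole-number counts without normalization. The submitters' processing notes name STAR and featureCounts and the builds mm10 and hg38. Versions, annotation release, strand setting and treatment of shared reads are not given in the sources used here. Reads carry no molecular identifiers, so precision from depth covers counting error only.

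Counts were fitted in R 4.3.3 with edgeR 4.0.16 (filterByExpr by genotype, TMM, genotype as the single term, quasi-likelihood F test, Benjamini-Hochberg adjustment over 12481 genes, threshold 0.05). SE was the fold change divided by the square root of F. CPM used TMM-normalized library sizes and log2 CPM a prior count of 2. Sex effects had genotype as a second term, and effects within sexes came from a fit of 4 groups. Single values were compared by two-sided exact permutation over 12870 assignments, whose smallest p is 0.0001554. Fits were tested on simulated data. Symbols, exon lengths and shared 50-base windows came from GENCODE vM21.

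The 9 genes, the 44 further complement genes and the marker lists were chosen with earlier results of these data known. Named were all 9, their paralogs, C1q genes, called complement genes, the most abundant gene of each role and the 3 genes most like each tested gene. Hc, C6, C8a, C8b, Cfd, Itgam, C3ar1, Fbln1, Mfsd2a, Emcn, Cd68, Mcm2, Mcm5 and the tested but uncalled pathway genes were named after their values were seen. A further gene of the pathway list is not reported here. Alternatives were DESeq2 1.42.0 size factors and Wald test, limma 3.58.1 voom, no filter, at least 10 counts in every library, sex, cell cycle or fibroblast and mural score as covariate, and each library left out. Figures were drawn in Python with matplotlib.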

Additional observations from a re-analysis of the deposited data

Results flagged for a closer look

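A single value stood apart among the complement genes. C8g, which encodes a chain of the terminal complement component C8, was at 1.88 CPM in *APOE3* replicate 33, and the next highest *APOE3* culture was at 1.28 CPM. That gap was 0.532 of the group's whole range, past the 95% limit of Dixon's test for 8 samples. Of 32 groups examined this was 1, and chance alone places about 1 group in 20 past the limit. C8g was not called in the comparison of genotypes.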

How the results depend on the processing

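The C3 and Clu calls held with DESeq2's size factors, DESeq2's Wald test, limma voom, no filter, at least 10 counts in every library, sex as a covariate and the fibroblast and mural score as a covariate, where C3 ranged from 0.71 to 0.80. With cell cycle score as covariate the number of the 9 genes called was 0 and that of further complement genes was 0, in a fit that called 0 of all genes, and the score and genotype are themselves related. DESeq2's Wald test called 2 of the 7 further complement genes tested, Masp1 being the second, beside 1965 of all 12481 genes. Fits without 1 library called 1 to 2 further complement genes. Masp1 passed without *APOE3* replicate 31 (log2 fold change 1.46), *APOE4* replicate 36 (1.31) or *APOE4* replicate 43 (1.32). Fits without 1 library always called 1 of the 9 genes, and 846 to 2127 of all genes, with the lowest counts without *APOE4* replicate 41 (846), *APOE3* replicate 30 (853) and *APOE3* replicate 33 (952).

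Signs turned only for values that were not called. With the cell cycle score Cd55 was at -0.18, Cfp at 0.14, C4a at 0.20, Cd46 at 0.024 and Susd4 at -0.37. Without 1 library Cd55 ran from -0.010 to 0.085. With a prior count of 0.5 the difference in microglia and macrophage markers was 0.00352. The cause was not tested. No paired analysis was possible because the replicate numbers of the genotypes are all different. Depth limits C4b, Cfb, C1s1 and Serping1, which have at most 17 counts in a library.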
